A study of Mus musculus with 2 samples.

Results

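The nuclei described here came from liver of mice with hepatocellular carcinoma (HCC) and were chosen by a gate on their own RNA counts. A nucleus was kept when it had at least 3000 unique molecular identifiers (UMIs, each standing for 1 captured RNA molecule), at most 5% mitochondrial UMIs and at least 3 UMIs of Pkhd1. The 6 genes Zfp804a, Hmga2, Ndnf, Synpr, Eya4 and Kitl had to hold at least 4 UMIs together, and at least 2 times the sum of Kcnj16, Slc8a3, Meltf, Smarca1 and Efhd1. Nuclei with more than 3 UMIs of the division genes Top2a, Tpx2, Mki67 and Anln were left out. The gate held 376 of the 17169 barcodes in the processed matrix, or 4.75% (4.30 to 5.25) of the 7908 that passed the depth and mitochondrial limits. These counts chose the nuclei, so they are described below without a test.

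The study took nuclei from a microdissected residual tumour area, and its 2 samples, labelled MRD-HCC 1 and MRD-HCC 2, form 1 group with no treatment, age, sex or strain named. RNA was counted in droplets with 10x Genomics 3' chemistry. All values are in 1 matrix whose barcodes carry 1 shared suffix and no sample name, and the sources used here do not say whether it holds both samples. It was therefore treated as 1 pooled sample, differences between animals cannot be told apart from differences between groups of nuclei, shared barcodes between libraries could not be counted, and no test was possible. Intervals in parentheses are exact 95% intervals and cover counting error only.

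Pkhd1 encodes fibrocystin, a membrane protein of the primary cilium in bile duct and kidney tubule cells. Kitl encodes the ligand of the receptor tyrosine kinase KIT. Eya4 encodes a phosphatase that also acts as a coactivator for transcription factors of the sine oculis family, and Hmga2 an architectural chromatin protein of embryonic tissue that is often switched on again in tumours. Ndnf encodes a secreted neurotrophic factor, Synpr a synaptic vesicle protein and Zfp804a a zinc finger protein. Carcinomas of the liver can carry programs of both lineages that arise from the fetal hepatoblast, the hepatocyte and the bile duct cell.

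The working label of the nuclei names Zfp804a and Hmga2, and the counts went partly against it. At least 1 Kitl UMI was found in 354 of the 376 nuclei (94.1%) and at least 1 Eya4 UMI in 288 (76.6%). Hmga2 was found in 200 nuclei (53.2%), Synpr in 140 (37.2%), Zfp804a in 116 (30.9%) and Ndnf in 42 (11.2%). The median nucleus had 8 UMIs of Kitl, 6 of Eya4, 1 of Hmga2 and 0 of Zfp804a. The nuclei are therefore called Kitl/Eya4 nuclei here. Of the 6 genes, 59 nuclei held only 1, and in 52 of those it was Kitl. Another 78 nuclei held 2 of the genes, 102 held 3, 73 held 4, 57 held 5 and 7 held all 6. Kitl, Eya4 and Hmga2 all lie on chromosome 10, Zfp804a on chromosome 2, Ndnf on chromosome 6 and Synpr on chromosome 14.

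**Figure D1:**
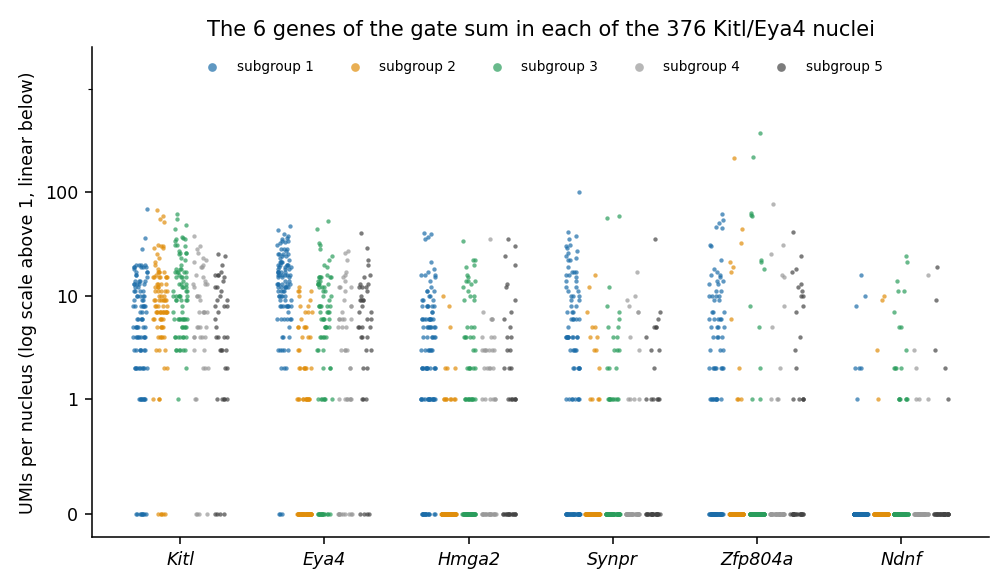
UMIs of each of the 6 summed gate genes (horizontal axis) in each of the 376 Kitl/Eya4 nuclei, coloured by subgroup (1 to 5), on a vertical axis that is logarithmic above 1 and linear below. Each point is 1 nucleus. Kitl was above 0 in 354 nuclei, while 260 nuclei had no Zfp804a and 1 nucleus had 376 UMIs of it.

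Zfp804a was spread very unevenly. Among the 376 nuclei, 260 had none, 39 had 1 to 3 UMIs, 26 had 4 to 9 and 51 had 10 or more. The 20 nuclei with the most Zfp804a held 70.1% of its UMIs, and a single nucleus held 376 UMIs. For Kitl and Eya4 the 20 highest nuclei held 21.5% and 22.3%. The median depth was 10517 UMIs in nuclei with 10 or more Zfp804a UMIs and 8332.5 UMIs in those with none.

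A pair of other groups in the same matrix serve as comparison. The Kcnj16/Slc8a3 nuclei, 1579 in number, passed the mirror image of the gate, with at least 4 UMIs of the 5 opposing genes and at least 2 times the Kitl/Eya4 sum. The hepatocyte nuclei, 981 in number, had at least 8 UMIs of Abcb11, Cyp7b1, Kyat3, Nr1i3 and C8b together and at most 1 UMI each of Pkhd1, Gpc3 and the Kitl/Eya4 sum. Kitl/Eya4 nuclei had 3104 to 125991 UMIs, with a median of 9965.5 and a total of 5114415. The median was 8008 in Kcnj16/Slc8a3 nuclei, with a total of 15657916, and 11438 in hepatocyte nuclei, with a total of 12549099. Free RNA, at the level of uncalled barcodes, was expected to make up 4.94% of the UMIs in Kitl/Eya4 nuclei, 6.78% in Kcnj16/Slc8a3 nuclei and 5.25% in hepatocyte nuclei. Levels are UMI counts summed over the nuclei of a group and scaled to the same total in every group (CPM). A gene was counted as higher or lower when log2(CPM + 1) differed by at least 1, that is 2-fold on this scale, and was compared only with at least 100 UMIs over both groups. Log2 differences on this scale understate the change of low genes.

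Without the gate genes, clustering of all nuclei still brought most Kitl/Eya4 nuclei together. One cluster of 590 nuclei held 269 of them (71.5%) and 18 Kcnj16/Slc8a3 nuclei. Most Kcnj16/Slc8a3 nuclei, 997 of 1579 (63.1%), lay in a cluster of 1154 nuclei that held 6 Kitl/Eya4 nuclei. The remaining Kitl/Eya4 nuclei were scattered, with 35 in a cluster of 612 nuclei and 19 in a cluster of 135.

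Clustered by themselves on genes outside the gate, the 376 nuclei fell into 5 subgroups, of 108, 96, 86, 46 and 40 nuclei. Subgroup 4 held the endothelial markers at a summed 1433 CPM and the macrophage markers at 686 CPM, and subgroup 5 the hepatocyte gene Cps1 of the urea cycle at 2439 CPM. In subgroups 1, 2 and 3 Cps1 was at 133, 162 and 119 CPM. All 24 nuclei that Scrublet called doublets, that is 2 nuclei under 1 barcode, lay in subgroup 4 (8 of 46) or subgroup 5 (16 of 40). Subgroup 5 had a median of 25378.5 UMIs, against 9791, 7376.5 and 9177.5 in subgroups 1, 2 and 3. The 86 nuclei of subgroups 4 and 5 held 44.2% of all UMIs, so values in the 290 nuclei of subgroups 1 to 3 are given below beside folds that differ there by over 1.5 times and beside called genes that are no longer 2-fold apart there. List medians in these nuclei are given together, since the Kcnj16/Slc8a3 nuclei were not trimmed in the same way.

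Of the 8 bile duct markers that the gate did not use, 4 stood above their level in free RNA, the RNA of droplets without a nucleus. Bicc1, an RNA-binding protein of tubular epithelia, stood at 592 CPM in Kitl/Eya4 nuclei, 696 CPM in Kcnj16/Slc8a3 nuclei and 55.6 CPM in hepatocyte nuclei. Pkhd1, the ninth marker, was required by the gate and stood at 1039.6 CPM in Kitl/Eya4 nuclei and 3114 CPM in Kcnj16/Slc8a3 nuclei. The classical duct markers Krt7 at 1.76 CPM and Epcam at 12.7 CPM lay below their free RNA levels of 5.87 and 44.04 CPM. All 8 hepatocyte markers lay below free RNA, at a summed 6028 CPM in Kitl/Eya4 nuclei, 4387 CPM in their subgroups 1 to 3, 6217 CPM in Kcnj16/Slc8a3 nuclei, 12611 CPM in hepatocyte nuclei and 41197 CPM in free RNA. A level below that of free RNA does not mean absence. Alb in hepatocyte nuclei, at 4514 CPM, also lay below its 25622 CPM in free RNA. The 8 endothelial markers summed to 529 CPM in Kitl/Eya4 nuclei, 317 CPM in their subgroups 1 to 3, 218 CPM in Kcnj16/Slc8a3 nuclei and 435 CPM in free RNA. The 8 macrophage and Kupffer markers summed to 196, 59.2, 122 and 306 CPM in those groups, and the 8 stellate and fibroblast markers to 142, 81.3, 126 and 483 CPM. The Y-linked genes Uty and Ddx3y were at 389 and 122 CPM in Kitl/Eya4 nuclei, 405 and 122 CPM in Kcnj16/Slc8a3 nuclei and 342 and 135 CPM in hepatocyte nuclei. The nuclei are given no cell type name.

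Set against the Kcnj16/Slc8a3 nuclei, 414 of 12000 genes (3.45%) were higher in Kitl/Eya4 nuclei and 420 (3.5%) were lower. The semaphorin coreceptor gene Nrp2, the ephrin genes Efna5 and Efnb2 and the receptor genes Igf1r and Axl were among those higher. The laminin genes Lama1 and Lamb1, the oncofetal gene Gpc3 and the Notch ligand Jag1 were among those lower. The median over all genes was -0.03 on the log2 scale. With each group cut to its main cluster the counts were 468 higher and 696 lower. With subgroups 1 to 3 alone they were 466 higher and 1453 lower, where the Kcnj16/Slc8a3 nuclei were not trimmed in the same way and the median over all genes was -0.15.

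**Figure D2:**
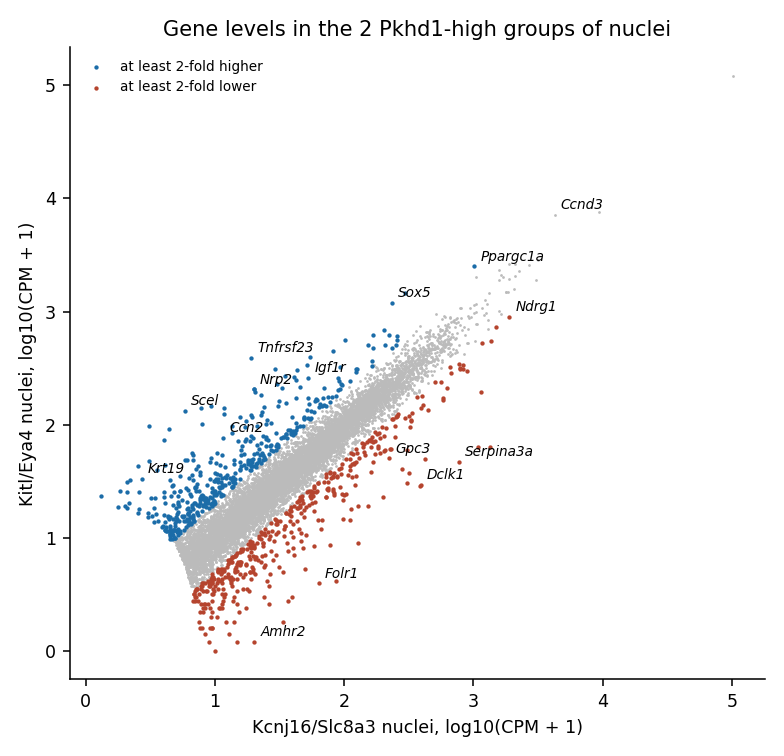
Each point is 1 of 12000 genes, by its level in Kcnj16/Slc8a3 nuclei (horizontal) and Kitl/Eya4 nuclei (vertical), both as log10(CPM + 1) of summed UMIs. The 414 genes at least 2-fold higher in Kitl/Eya4 nuclei are blue and the 420 at least 2-fold lower are red. Scel, Tnfrsf23 and Nrp2 lie above the diagonal, Serpina3a and Dclk1 below it.

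Scel, which encodes sciellin, a precursor of the cornified envelope of squamous epithelium, had the highest ratio on the log2(CPM + 1) scale among named gene models. It stood at 131 CPM (121 to 141) in Kitl/Eya4 nuclei, against 4.85 CPM in Kcnj16/Slc8a3 nuclei and 1.43 CPM in hepatocyte nuclei, and was 26.9-fold (21.2 to 34.6) higher than in Kcnj16/Slc8a3 nuclei. Single Kitl/Eya4 nuclei had 0 to 20 Scel UMIs, with a median of 1, and Kcnj16/Slc8a3 nuclei 0 to 4, with a median of 0. With every nucleus thinned to 3000 UMIs, Scel was found in 31.4% (26.7 to 36.3) of Kitl/Eya4 nuclei, 1.14% (0.677 to 1.80) of Kcnj16/Slc8a3 nuclei and 0.510% (0.166 to 1.19) of hepatocyte nuclei. Without thinning the shares were 60.4%, 3.74% and 1.63% in Kitl/Eya4, Kcnj16/Slc8a3 and hepatocyte nuclei. The groups overlapped, since many Kitl/Eya4 nuclei had no Scel.

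Tnfrsf23, which encodes a decoy receptor for the death ligand TRAIL in the mouse, stood at 388 CPM (371 to 405) in Kitl/Eya4 nuclei, against 18.1 CPM in Kcnj16/Slc8a3 nuclei and 4.46 CPM in hepatocyte nuclei. That is 21.4-fold (18.9 to 24.3) higher than in Kcnj16/Slc8a3 nuclei. Single Kitl/Eya4 nuclei had 0 to 104 UMIs, with a median of 2, and Kcnj16/Slc8a3 nuclei 0 to 13, with a median of 0. After thinning it was found in 47.3% (42.2 to 52.5) of Kitl/Eya4 nuclei, 4.69% (3.70 to 5.85) of Kcnj16/Slc8a3 nuclei and 1.22% (0.634 to 2.13) of hepatocyte nuclei. Unthinned, the shares were 71.01% in Kitl/Eya4, 11.6% in Kcnj16/Slc8a3 and 5.30% in hepatocyte nuclei.

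Serpina3a, a member of the serine protease inhibitor family, had one of the lowest ratios. It stood at 45.9 CPM (40.3 to 52.2) in Kitl/Eya4 nuclei, against 770.2 CPM in Kcnj16/Slc8a3 nuclei, 8.85 CPM in hepatocyte nuclei and 119 CPM in free RNA, and was 16.8-fold (14.7 to 19.2) lower. Its level in Kitl/Eya4 nuclei was thus below that of free RNA. Free RNA was expected to make up 4.94% of their UMIs, so this does not mean that Serpina3a was absent from them. Single Kitl/Eya4 nuclei had 0 to 35 UMIs, with a median of 0, and Kcnj16/Slc8a3 nuclei 0 to 113, with a median of 1.

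The 250 bases before the transcription start of Tnfrsf23 and Serpina3a are shown because these genes had the most UMIs among the 15 highest and the 15 lowest with a listed promoter. They come from RefSeq on build GRCm38.p6, at chr7:143685876-143686125 on the minus strand for Tnfrsf23 and at chr12:104112474-104112723 on the plus strand for Serpina3a. Capitals mark a match to GTTAAT, the core of the HNF1 motif.
Tnfrsf23: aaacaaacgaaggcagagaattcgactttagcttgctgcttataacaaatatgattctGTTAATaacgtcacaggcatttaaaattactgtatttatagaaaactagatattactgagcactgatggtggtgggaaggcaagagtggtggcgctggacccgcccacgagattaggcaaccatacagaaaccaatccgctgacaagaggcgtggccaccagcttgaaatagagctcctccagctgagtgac
Serpina3a: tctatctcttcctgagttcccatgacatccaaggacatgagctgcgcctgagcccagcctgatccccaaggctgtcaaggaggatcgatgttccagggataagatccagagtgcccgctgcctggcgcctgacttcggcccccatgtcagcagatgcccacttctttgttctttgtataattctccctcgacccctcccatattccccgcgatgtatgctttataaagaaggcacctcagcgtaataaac
Promoters of 293 of the 414 higher genes and 293 of the 420 lower genes were listed. GTTAAT was present, on either strand, in 3.41% of the higher genes' promoters, 6.48% of the lower genes' promoters and 6.52% of all 26794. The AP-1 motif TGANTCA was in 7.17%, 5.46% and 6.90%, and the TEAD motif GGAATG in 11.9%, 13.99% and 12.5%, of the promoters of higher genes, lower genes and all genes. None of the 3 motifs contains another, and a match describes letters, not a bound site.

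Among the 15 with the highest ratios on this scale, Rab27b, a small GTPase that docks secretory vesicles at the membrane, stood at 89.7 CPM in Kitl/Eya4 nuclei and 3.38 CPM in Kcnj16/Slc8a3 nuclei, 26.5-fold (19.9 to 35.9) higher. Sytl2, which encodes a RAB27 effector, was 23.97-fold (17.7 to 33.2) higher, at 71.95 CPM in Kitl/Eya4 nuclei and 3.002 CPM in Kcnj16/Slc8a3 nuclei. Syt17, of the synaptotagmin family, was 21.99-fold (15.2 to 32.7) higher. The cytoskeletal genes Map1b and Slain1, both of microtubules, were 20.7-fold (16.9 to 25.7) and 15.1-fold (10.7 to 21.7) higher.

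Others of the 15 were 18.7-fold (12.4 to 29.2) higher for Krt19, a keratin of bile ducts, 25.9-fold (16.1 to 44.2) for Nos1, the neuronal nitric oxide synthase, with 43.3-fold (26.8 to 73.9) in subgroups 1 to 3, and 27.7-fold (16.8 to 48.8) for Sfrp4, a secreted Wnt antagonist. Slc12a8, a membrane transporter, was 17.4-fold (14.4 to 21.2) higher, Lmcd1 27.2-fold (17.8 to 43.3), Nav3 14.4-fold (11.7 to 17.9) and Tenm4, a teneurin, 12.8-fold (10.8 to 15.2). Krt19 at 32.3 CPM was the 1 keratin among them, and it stood at 1.72 CPM in Kcnj16/Slc8a3 nuclei and 17.5 CPM in free RNA.

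Among the 15 lowest, Dclk1, a kinase known as a tuft and stem cell marker, stood at 28.4 CPM in Kitl/Eya4 nuclei and 389.9 CPM in Kcnj16/Slc8a3 nuclei, 13.8-fold (11.7 to 16.3) lower. Sema5a, an axon guidance cue, stood at 48.1 CPM in Kitl/Eya4 nuclei and 420.1 CPM in Kcnj16/Slc8a3 nuclei, 8.73-fold (7.69 to 9.96) lower. Folr1, the folate receptor alpha, was 21.4-fold (12.9 to 38.4) lower, and Vil1, villin of the microvillus, 10.1-fold (7.31 to 14.2). Amhr2, the receptor of anti-Mullerian hormone, and the protease gene Pappa2 had 1 UMI each in Kitl/Eya4 nuclei, and were 98.3-fold (17.5 to 3896) and 70.6-fold (12.5 to 2799) lower. In subgroups 1 to 3 Amhr2 had 1 UMI and was 54.9-fold (9.78 to 2175) lower, and Pappa2 had none. Lctl had no UMI in Kitl/Eya4 nuclei and 142 in Kcnj16/Slc8a3 nuclei, which is at least 15.5-fold lower when set against a floor of 3 counts over the Kitl/Eya4 nuclei. Npl, Rnf180 and Abi3bp were 8.68-fold (7.50 to 10.1), 10.4-fold (8.81 to 12.3) and 9.18-fold (7.60 to 11.2) lower, and Olfr617, Akr1cl, Cdh9 and Rgcc completed the 15.

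Of 18 compared genes of the growth factor receptor list, 3 (16.7%) were higher and 1 (5.56%) was lower, beside 3.45% and 3.5% over all genes. Igf1r, the receptor of insulin-like growth factors, stood at 258 CPM (244 to 272) in Kitl/Eya4 nuclei and 51.9 CPM in Kcnj16/Slc8a3 nuclei, 4.97-fold (4.55 to 5.43) higher. Axl, a receptor of the TAM family, was 5.19-fold (4.06 to 6.67) higher, at 34.8 CPM in Kitl/Eya4 nuclei and 6.71 CPM in Kcnj16/Slc8a3 nuclei. Erbb4 was 2.16-fold (1.93 to 2.42) lower. Kit itself, the receptor of the Kitl product, stood at 19.9 CPM in Kitl/Eya4 nuclei, 15.8 CPM in their subgroups 1 to 3 and 8.81 CPM in Kcnj16/Slc8a3 nuclei. Egfr, the EGF receptor, was 1.45-fold (1.42 to 1.48) higher in all Kitl/Eya4 nuclei, under the 2-fold limit, and at 229.8 CPM in subgroups 1 to 3 against 1589 CPM in Kcnj16/Slc8a3 nuclei.

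Of 26 ligand genes, 3 (11.5%) were higher and 5 (19.2%) lower, beside 3.45% and 3.5% over all genes. Bmp6, which in liver signals iron load to hepatocytes, stood at 203 CPM in Kitl/Eya4 nuclei, 88.2 CPM in Kcnj16/Slc8a3 nuclei and 3.67 CPM in hepatocyte nuclei. Areg, a ligand of the EGF receptor, was 2.89-fold (2.17 to 3.84) higher than in Kcnj16/Slc8a3 nuclei. Nrg2, a ligand of ERBB receptors, was 3.31-fold (2.72 to 4.06) lower, and Il34, a ligand of the macrophage receptor CSF1R, 3.06-fold (2.62 to 3.60) lower.

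Axon guidance genes held the largest number of called genes of any list, 8 higher and 4 lower of 33 compared, beside 3.45% and 3.5% over all genes. Nrp2, a coreceptor of class 3 semaphorins, stood at 204 CPM (191 to 216) in Kitl/Eya4 nuclei, against 19.03 CPM in Kcnj16/Slc8a3 nuclei and 25.6 CPM in hepatocyte nuclei, 10.7-fold (9.39 to 12.2) higher than in Kcnj16/Slc8a3 nuclei. Its plexin partner Plxna4 was 3.51-fold (3.27 to 3.77) higher, at 319.9 CPM in Kitl/Eya4 nuclei and 91.2 CPM in Kcnj16/Slc8a3 nuclei. The ephrins Efna5 and Efnb2 were 6.60-fold (6.06 to 7.18) and 3.42-fold (2.87 to 4.08) higher, and the semaphorin gene Sema3e 7.91-fold (5.63 to 11.3). Robo1, counted as higher at log2 1.04, was at -2.43 in subgroups 1 to 3, and stood at 207 CPM in subgroup 4. The median of the list was 0.32 in all Kitl/Eya4 nuclei and -0.47 in subgroups 1 to 3.

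Among transcription factors and coactivators, Sox5 and Ppargc1a were higher. Sox5 stood at 1184 CPM (1154 to 1214) in Kitl/Eya4 nuclei, against 232 CPM in Kcnj16/Slc8a3 nuclei and 905 CPM in hepatocyte nuclei. Single Kitl/Eya4 nuclei had 0 to 101 UMIs of Sox5 with a median of 12, Kcnj16/Slc8a3 nuclei 0 to 97 with a median of 0, and hepatocyte nuclei 0 to 68 with a median of 9. Here the Kitl/Eya4 nuclei lay nearer to hepatocyte nuclei than to the other Pkhd1-high nuclei. Ppargc1a, which encodes PGC-1 alpha, a coactivator of mitochondrial and fasting genes, stood at 2502 CPM (2459 to 2546) in Kitl/Eya4 nuclei, against 1017 CPM in Kcnj16/Slc8a3 nuclei and 84.6 CPM in hepatocyte nuclei. It was the 1 gene called among 12 of the coactivator list (8.33%), beside 3.45% higher and 3.5% lower over all genes.

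Of 24 liver lineage factors, 2 (8.33%) were higher and 2 lower than in Kcnj16/Slc8a3 nuclei, beside 3.45% and 3.5% over all genes. The median of the list was -0.01 in all nuclei, -0.43 between the main clusters of both groups and -1.13 in subgroups 1 to 3. Foxa2, a pioneer factor of endoderm, was 3.04-fold (2.45 to 3.79) higher, and Nr5a2, a regulator of bile acid genes, 2.58-fold (2.45 to 2.72) lower. Onecut1, a factor of hepatoblasts and ducts, was at 228 CPM in Kitl/Eya4 nuclei and 26.3 CPM in their subgroups 1 to 3, against 219 CPM in Kcnj16/Slc8a3 nuclei and 699 CPM in hepatocyte nuclei. Hnf4a, the main hepatocyte factor, was at 124 CPM in Kitl/Eya4 nuclei and 41.7 CPM in their subgroups 1 to 3, against 126 CPM in Kcnj16/Slc8a3 nuclei and 342 CPM in hepatocyte nuclei.

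Of 21 basement membrane genes 2 (9.52%) were higher and 2 lower, beside 3.45% and 3.5% over all genes. Of the laminin chain genes, Lama1 was 6.08-fold (3.49 to 11.6) lower, with 11.03-fold (4.25 to 40.8) in subgroups 1 to 3, and Lamb1 4.43-fold (3.67 to 5.38) lower. Col4a5 and Col4a6, collagen chains of epithelial basement membranes, stood at 475 and 318 CPM in Kitl/Eya4 nuclei, at 407 and 222 CPM in Kcnj16/Slc8a3 nuclei and at 15.9 and 4.54 CPM in hepatocyte nuclei. Itgb4, the integrin partner of hemidesmosomes, was 2.83-fold (1.89 to 4.24) higher and Itgb8, an activator of TGF-beta, 4.69-fold (3.85 to 5.77) lower.

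Ccn2, a matricellular gene that YAP induces, was 7.10-fold (5.90 to 8.57) higher than in Kcnj16/Slc8a3 nuclei, at 75.3 CPM in Kitl/Eya4 nuclei and 10.6 CPM in Kcnj16/Slc8a3 nuclei. It was the 1 called gene of 19 Hippo genes (5.26%), beside 3.45% higher and 3.5% lower over all genes. Its level in free RNA was 50.4 CPM. Lgr5, the R-spondin receptor of stem cells and pericentral hepatocytes, was 3.33-fold (3.02 to 3.66) higher, at 172 CPM in Kitl/Eya4 nuclei and 51.7 CPM in Kcnj16/Slc8a3 nuclei, with 64.1 CPM in hepatocyte nuclei. The Notch ligand Jag1 was 3.09-fold (2.58 to 3.72) lower and the coactivator Maml2 2.51-fold (2.29 to 2.75) higher. With 9 genes of the list compared, that is 11.1% in each direction.

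Of 11 oncofetal genes compared, 1 (9.09%) was higher and 2 (18.2%) were lower, beside 3.45% and 3.5% over all genes. Igf2bp2, an RNA-binding protein of fetal tissue, was 2.24-fold (2.11 to 2.38) higher than in Kcnj16/Slc8a3 nuclei. Gpc3, a proteoglycan used as an HCC marker, stood at 49.1 CPM in Kitl/Eya4 nuclei, 223 CPM in Kcnj16/Slc8a3 nuclei and 68.1 CPM in free RNA, 4.54-fold (3.99 to 5.18) lower than in Kcnj16/Slc8a3 nuclei. Trim71, an RNA-binding ubiquitin ligase of early embryos, was 6.66-fold (3.30 to 15.7) lower. Peg3, an imprinted gene, was at 1463 CPM in Kitl/Eya4 nuclei, 1314 CPM in Kcnj16/Slc8a3 nuclei and 31.8 CPM in hepatocyte nuclei.

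Of 17 hypoxia genes compared, 2 (11.8%) were higher and 1 (5.88%) was lower, beside 3.45% and 3.5% over all genes. The prolyl hydroxylase gene Egln3 was 2.24-fold (2.03 to 2.47) higher than in Kcnj16/Slc8a3 nuclei and Adm, which encodes adrenomedullin, 3.08-fold (2.41 to 3.95) higher, while Ndrg1 was 2.13-fold (2.07 to 2.20) lower, at 891 CPM in Kitl/Eya4 nuclei and 1901 CPM in Kcnj16/Slc8a3 nuclei. In subgroups 1 to 3 Ndrg1 stood at 1201 CPM, which is no longer 2-fold lower. The median of the list was -0.07. Glycolysis genes had 1 gene called of 18 (5.56%, beside the same shares), the hexokinase gene Hk1 at 2.08-fold (1.90 to 2.27) higher.

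In the remaining lists, counts over Kcnj16/Slc8a3 nuclei stand beside 3.45% higher and 3.5% lower over all genes. Of 10 progenitor and stem cell genes 3 (30%) were higher, the largest share of any list, and 1 (10%) was lower. Of 21 mesenchymal and TGF-beta genes 3 (14.3%) were higher, among them Ltbp1, which stores latent TGF-beta, at 4.71-fold (3.41 to 6.54), and none lower. Of 15 Wnt genes 2 (13.3%) were higher and 1 (6.67%) lower, and of 17 inflammatory genes 2 (11.8%) were lower. Of 9 immune checkpoint ligands 1 (11.1%) was higher and 1, Nectin1, lower at 3.19-fold (2.81 to 3.62), with 5.97-fold (4.79 to 7.53) in subgroups 1 to 3. Of 16 synapse and ion channel genes 2 (12.5%) were lower. In 28 hepatocyte product genes, 21 lipid synthesis genes, 15 survival and death genes, 14 NRF2 targets and 13 cyclin and inhibitor genes, none passed 2-fold in either direction, with medians from 0.00 to 0.32. Of the genes named from lists by the fixed rule, Areg, Erbb4, Grm3, Hk1, Itgb4 and Ndrg1 did not keep 2-fold over Kcnj16/Slc8a3 nuclei under every alternative. Robo1 and Kit were chosen after their values were seen and were not followed through the alternatives. Robo1 was not higher in subgroups 1 to 3, as given above.

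List medians over Kcnj16/Slc8a3 nuclei moved when subgroups 4 and 5, with their markers of other cell types, were left out. Of the 28 list medians 14 turned in sign, and 3 then reached 2-fold, against 0 in all nuclei. Hepatocyte products stood at -0.95 in subgroups 1 to 3 and 0.08 in all Kitl/Eya4 nuclei, and lipid synthesis genes at -0.73 and 0.12. The synapse and ion channel list stood at -1.53 and 0.14, the growth factor receptor list at -0.39 and 0.41, and the immune checkpoint ligands at -0.81 and 0.11. Between the main clusters of both groups, which trims both, these lists stood at -0.20 for hepatocyte products, -0.13 for lipid synthesis, -0.62 for synapse and ion channel genes, -0.04 for growth factor receptors and -0.78 for checkpoint ligands. The part of other cell types' RNA in these medians was not tested.

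Against the hepatocyte nuclei the differences were broader. Of 11233 genes, 1536 (13.7%) were higher in Kitl/Eya4 nuclei and 1334 (11.9%) lower, with a median of 0.07 over all genes. Glycolysis genes were higher for 16 of 18 compared and hypoxia genes for 11 of 15, with medians of 1.78 and 2.00. Bile duct genes were higher for 12 of 17 and lower for 2, with a median of 1.71, and basement membrane genes higher for 12 of 18 and lower for 4, with a median of 1.37. Hepatocyte products were lower for 22 of 28 and lipid synthesis genes for 15 of 21, with medians of -1.43 and -1.38. The axon guidance median was 1.12 in all Kitl/Eya4 nuclei and -0.19 in subgroups 1 to 3. For hepatocyte products and lipid synthesis the medians in subgroups 1 to 3 were -2.65 and -2.37.

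**Figure D3:**
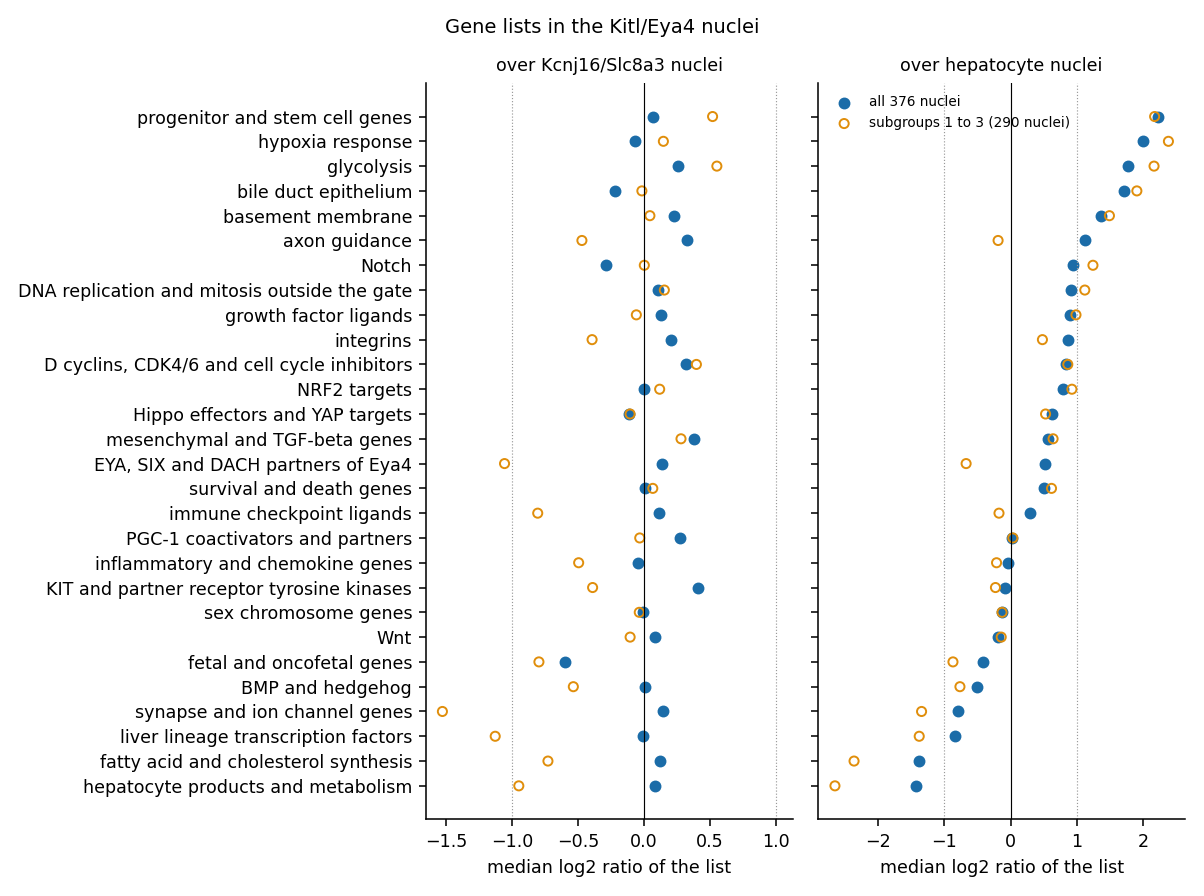
Median log2 ratio of each of 28 gene lists (rows) in Kitl/Eya4 nuclei over Kcnj16/Slc8a3 nuclei (left panel) and over hepatocyte nuclei (right panel). Filled points are all 376 nuclei, open points the 290 nuclei of subgroups 1 to 3, and dotted lines mark 2-fold. Over hepatocyte nuclei, glycolysis stood at 1.78 and hepatocyte products at -1.43, while over Kcnj16/Slc8a3 nuclei no list of all 376 nuclei reached 2-fold and 3 lists of subgroups 1 to 3 did.

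On the log2(CPM + 1) scale the highest ratio over hepatocyte nuclei belonged to Sctr, the secretin receptor of bile duct cells, at 274 CPM (259.8 to 289) in Kitl/Eya4 nuclei against 2.15 CPM, 127-fold (87.1 to 194) higher. It stood at 160.2 CPM in Kcnj16/Slc8a3 nuclei. Tnfrsf23 was 86.8-fold (66.6 to 115) and Slc12a8 100.2-fold (62.9 to 170.0) higher than in hepatocyte nuclei, and both were also among the 15 highest over Kcnj16/Slc8a3 nuclei. Myo5c, a myosin of secretory granules, was 119-fold (78.3 to 191) higher, Atp13a4 121-fold (76.9 to 201), Ppm1e 102-fold (73.5 to 145), Srgap1, of SLIT and ROBO signalling, 70.2-fold (58.1 to 85.5) and Gxylt2 66.9-fold (54.03 to 83.9). Ccnd3, which encodes cyclin D3, stood at 7144 CPM (7071 to 7218) in Kitl/Eya4 nuclei, against 4280.4 CPM in Kcnj16/Slc8a3 nuclei and 202 CPM in hepatocyte nuclei.

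The lowest ratios over hepatocyte nuclei included the imprinted long RNAs Meg3 and Rian, 10.4-fold (7.05 to 15.8) and 12.8-fold (4.89 to 47.8) lower, and the cytochrome gene Cyp2b9, 7.06-fold (5.45 to 9.30) lower. Fras1, of the epithelial basement membrane, was 5.34-fold (4.34 to 6.64) lower and Adrb3, a beta-adrenergic receptor, 5.43-fold (4.23 to 7.06) lower. In subgroups 1 to 3 these genes lay further below hepatocyte nuclei, at 52.02-fold (17.7 to 253) lower for Meg3, 24.05-fold (13.02 to 50.3) for Cyp2b9, 24.1-fold (13.8 to 46.8) for Fras1 and 33.8-fold (15.5 to 92.4) for Adrb3. Tbx3os1, Bglap3 and Snhg11 completed the 8 lowest. Reads of Tbx3os1, an antisense gene, may belong to its partner on the other strand. Egfr was at 2309 CPM in all Kitl/Eya4 nuclei and 229.8 CPM in their subgroups 1 to 3, against 8453 CPM in hepatocyte nuclei and 1818 CPM in free RNA.

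Within the Kitl/Eya4 nuclei, subgroups 1, 2 and 3 differed in which gate genes they carried. The genes that define a subgroup follow from its clustering and are given as a description. Eya4 was found in 97.2% of nuclei of subgroup 1, 43.8% of subgroup 2 and 80.2% of subgroup 3, and Hmga2 in 84.3%, 14.6% and 52.3%. Zfp804a was found in 57.4%, 11.5% and 15.1%, at a summed 606, 447 and 909.9 CPM. In subgroup 3, 2 nuclei held 596 of its 856 Zfp804a UMIs, and without the highest nucleus the level was 519 CPM, below that of subgroup 1. The level of subgroup 2 also rested on few nuclei, since 11 had any Zfp804a and 1 of them held 212 UMIs. Kitl was found in 91.7% of subgroup 1, 94.8% of subgroup 2 and every nucleus of subgroup 3. These shares are unthinned, at median depths of 9791, 7376.5 and 9177.5 UMIs. The gate genes were not used to form the subgroups.

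Subgroup 1 was led by Ccdc162, at 176 CPM against 7.53 CPM in subgroup 2 and 3.19 CPM in subgroup 3, with the relaxin receptor gene Rxfp1, Slc12a8, Tenm4 and the cornified envelope gene Sprr1a. The hypoxia genes Ndrg1 and Egln3 differed between subgroups and Hif1a differed less. Ndrg1 stood at 1990.3, 363 and 974 CPM in subgroups 1, 2 and 3, and Egln3 at 372, 42.7 and 143 CPM. Hif1a, which encodes the oxygen-regulated subunit of hypoxia-inducible factor, was at 454, 436 and 551 CPM. Krt19 was found in 39.8%, 3.12% and 20.9% of their nuclei. Scel and Tnfrsf23, the genes that set Kitl/Eya4 nuclei apart from Kcnj16/Slc8a3 nuclei, were found in all 3, at 223, 154 and 189 CPM and at 718, 298 and 629 CPM.

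Subgroup 2 was led by Tfcp2l1, a transcription factor of kidney collecting ducts and pluripotent cells, at 144 CPM against 17.9 CPM in subgroup 1. It also held more of the genes typical of Kcnj16/Slc8a3 nuclei. Serpina3a stood at 24.2, 131 and 53.1 CPM in subgroups 1, 2 and 3 and at 770.2 CPM in Kcnj16/Slc8a3 nuclei. Dclk1 stood at 26.8, 74.1 and 21.3 CPM, against 389.9 CPM, and Sema5a at 22.4, 102 and 9.57 CPM, against 420.1 CPM. All 3 subgroups thus remained below the Kcnj16/Slc8a3 nuclei in these genes.

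Subgroup 3 was led by Nos1, at 148 CPM against 4.47 CPM in subgroup 1 and 7.53 CPM in subgroup 2. The ratio of Nos1 over Kcnj16/Slc8a3 nuclei therefore rested mostly on these 86 nuclei, which held 139 of its 161 UMIs, and 30.2% of them had a Nos1 UMI. Pkhd1l1, a homologue of Pkhd1, and Grm3, a glutamate receptor, were at 45.7 and 165 CPM in subgroup 3. Grm3 was at 5.37 CPM in subgroup 1, 37.7 CPM in subgroup 2 and 130.0 CPM in Kcnj16/Slc8a3 nuclei.

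**Figure D4:**
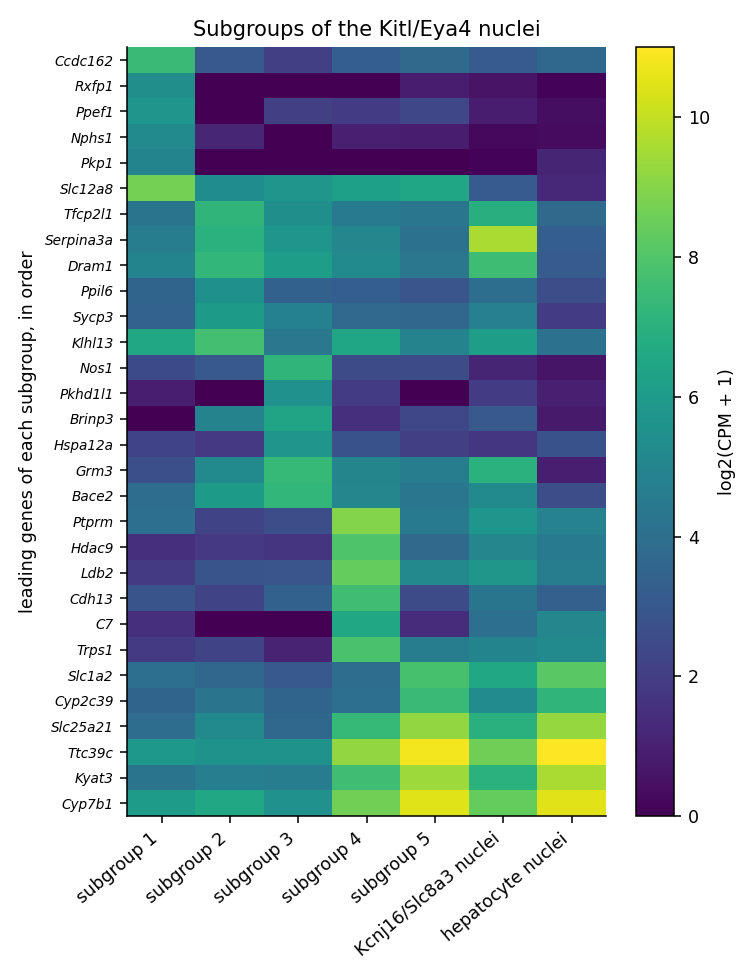
Levels as log2(CPM + 1), from 0 in dark to 11 in light, of the 6 leading genes of each of the 5 subgroups (rows) in the subgroups, Kcnj16/Slc8a3 nuclei and hepatocyte nuclei (columns). Genes that lead subgroup 5, such as Ttc39c and Slc25a21, are also light in hepatocyte nuclei. Cyp7b1 and Kyat3, which also lead it, were part of the hepatocyte gate, so their level there follows from that choice. Serpina3a, a leading gene of subgroup 2, is lighter in Kcnj16/Slc8a3 nuclei.

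The uneven Zfp804a counts allowed nuclei of subgroups 1 to 3 to be split into 58 with at least 4 Zfp804a UMIs and 204 with none. Of 4775 genes, 48 (1.01%) were at least 2-fold higher and 69 (1.45%) at least 2-fold lower in the nuclei with Zfp804a. Nav3, a neuron navigator gene, was 7.45-fold (5.84 to 9.57) higher, at 365 CPM with and 48.9 CPM without Zfp804a. Ndnf, another gate gene, was 9.10-fold (6.43 to 13.1) higher, Ptprd, a receptor phosphatase, 3.75-fold (3.51 to 4.01) and Lgr5 3.39-fold (2.90 to 3.95). Ndnf was also uneven, since 20 of all 376 nuclei held 87.0% of its UMIs, and its interval does not cover that spread. The gate genes Hmga2, Synpr and Eya4 were also higher with Zfp804a, at 2.75-fold (2.40 to 3.14), 2.50-fold (2.20 to 2.84) and 2.01-fold (1.84 to 2.19). Kitl went the other way, at 907 CPM with and 1284 CPM without Zfp804a, and Pkhd1 was at 1369 and 1377 CPM. The gate bears on these gate genes, since a nucleus without Zfp804a had to reach the sum through the others and every nucleus had to hold Pkhd1. Its part in these values was not tested. Grm3, the gene of subgroup 3, was at 3.42 CPM with and 93.8 CPM without it. Of the nuclei with 4 or more UMIs, 41 lay in subgroup 1, 7 in subgroup 2 and 10 in subgroup 3, so this split also follows the subgroups.

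Before the step that removed dividing nuclei, 41 of 417 gated nuclei, or 9.83% (7.15 to 13.1), had more than 3 UMIs of the 4 division genes. The share was 5.56% (4.51 to 6.77) among 1672 Kcnj16/Slc8a3 nuclei and 0.306% (0.0631 to 0.891) among 981 hepatocyte nuclei. With every nucleus thinned to 3000 UMIs, at least 1 such UMI was found in 13.2% (10.1 to 16.8), 9.87% (8.48 to 11.4) and 1.83% (1.09 to 2.88) of Kitl/Eya4, Kcnj16/Slc8a3 and hepatocyte nuclei. The intervals of the 2 Pkhd1-high groups overlapped after thinning. After that step, which took dividing nuclei out of both Pkhd1-high groups, genes of DNA replication and mitosis outside the gate had a median log2 ratio of 0.11 over Kcnj16/Slc8a3 nuclei, with none of 15 called. The step itself narrows any difference in these genes.

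Ratios by chromosome were taken over hepatocyte nuclei, as the median of a chromosome's genes minus the median of all genes. In subgroups 1 to 3, chromosome 10 stood at 0.24, chromosome 16 at 0.24, chromosome 15 at 0.14, chromosome 4 at -0.23 and chromosome 1 at -0.04. In Kcnj16/Slc8a3 nuclei chromosome 15 stood at 0.35, chromosome 1 at 0.27, chromosome 10 at 0.10, chromosome 4 at -0.29 and chromosome 16 at -0.12. Both sets of values share the hepatocyte nuclei. Set directly against Kcnj16/Slc8a3 nuclei, Kitl/Eya4 nuclei stood at -0.25 for chromosome 15, -0.19 for chromosome 1 and 0.23 for chromosome 16. With each group cut to its main cluster these were -0.35, -0.29 and 0.32, beside -0.26 for chromosome 13, 0.22 for chromosome 4 and -0.20 for chromosome 11. Chromosome 16 stood at 0.11 in subgroup 1, 0.33 in subgroup 2 and 0.35 in subgroup 3 over hepatocyte nuclei. Whether these medians follow DNA copy number was not tested.

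**Figure D5:**
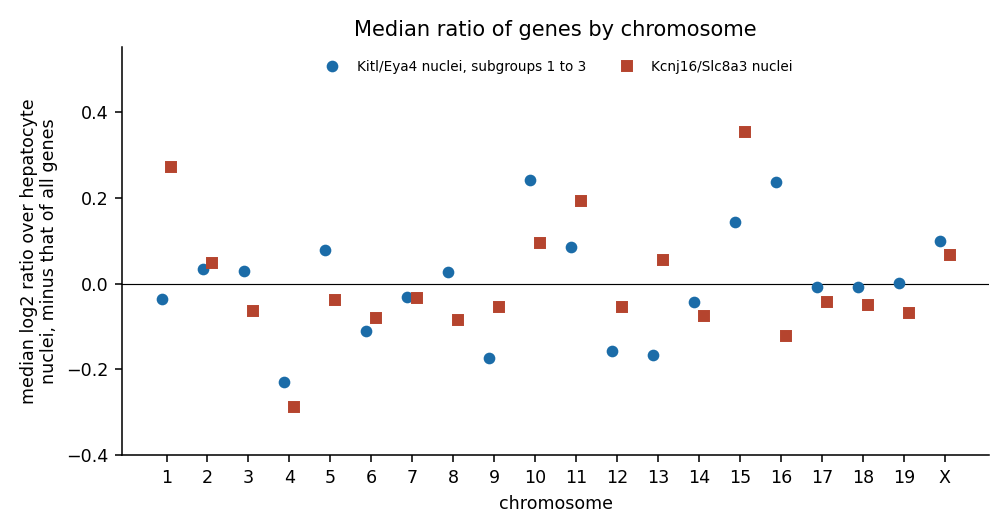
Median log2 ratio over hepatocyte nuclei by chromosome (horizontal axis), minus the median of all genes, for subgroups 1 to 3 of the Kitl/Eya4 nuclei (circles) and for Kcnj16/Slc8a3 nuclei (squares). On chromosome 1 the values were -0.04 and 0.27, and on chromosome 16 they were 0.24 and -0.12.

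Nuclei close to the gate's limit differed from the rest. In the 15 nuclei with exactly 4 UMIs of the gate sum, Scel stood at 39.96 CPM, and in the 25 with 3 UMIs, just outside, at 69.9 CPM. In the 66 nuclei with 5 to 9 UMIs it was 82.3 CPM and in the 295 with 10 or more 144 CPM. Tnfrsf23 stood at 79.9 CPM at 4 UMIs, 107 CPM at 3, 192 CPM at 5 to 9 and 438 CPM at 10 or more. The nuclei at 4 UMIs had a median depth of 7030 UMIs, but included deep ones of subgroups 4 and 5. Examples at 52640 and 47154 UMIs held no Scel and no Tnfrsf23. Such nuclei weigh on the summed levels at 4 UMIs, so levels just inside and just outside the limit cannot be ranked. Nuclei just outside still stood above the 4.85 and 18.1 CPM of Kcnj16/Slc8a3 nuclei, so the gate cuts through a range. Both levels rest on few nuclei and carry no interval. The endothelial marker Ptprb stood at 147 CPM at 4 UMIs and 32.9 CPM at 3, and the hepatocyte factor Hnf4a at 266 and 201 CPM. The part of other cell types' RNA in these levels was not tested.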

How the data were processed

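The deposited matrices hold counts of UMIs per gene and barcode, without normalization, which the authors made with Cell Ranger 5.0 on build mm10, per the submitters' processing notes. Per the file headers the processed matrix came from version 5.0.0 and the raw one from version 4. Nuclei were isolated from frozen liver, per the labels' protocols, and the sources used here do not say whether the 1 matrix holds both samples. The gate, its mirror, the hepatocyte gate and 28 gene lists were chosen with earlier results of these data known.

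Counts were summed over the nuclei of a group and scaled to CPM, and ratios were taken as log2(CPM + 1) with at least 100 UMIs per gene. Intervals of levels, shares and folds are exact (Poisson, Clopper-Pearson). The ratio script was tested on simulated data. Nuclei are not replicates, so no p-value was computed. Free RNA was measured in 49929 uncalled barcodes with 500 to 849 UMIs. Scrublet in scanpy 1.11.5, run on 9632 barcodes with at least 2000 UMIs, called 323 doublets among the nuclei that passed the depth and mitochondrial limits. They stayed in, and an alternative left them out. Leiden clustering used 2000 variable genes outside the gate and 15 neighbours, with 30 components and resolution 1 for all nuclei, and 20 components and resolution 0.5 within the Kitl/Eya4 nuclei. Named genes, leaving out unnamed models (Gm, Rik) and mitochondrial genes, were the 15 highest and 15 lowest against Kcnj16/Slc8a3 nuclei, the 8 highest and 8 lowest against hepatocyte nuclei, and in each list the 3 with the highest level and the 3 with the largest ratio. Efnb2, Sema3e, Robo1, Kit, Hif1a, cell type markers and genes named for subgroups or for the Zfp804a split were chosen after their values were seen. GENCODE vM21 matched 32235 of 32285 gene IDs. A few genes that the naming rule selects are not reported here, while counts and medians of lists include them.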

Additional observations from a re-analysis of the deposited data

Results flagged for a closer look

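In barcodes outside the depth limit, 15 with under 3000 UMIs met every other condition of the gate, with a median of 2431 UMIs. Scel stood at 156 CPM in them and Tnfrsf23 at 312 CPM, against 4.85 and 18.1 CPM in Kcnj16/Slc8a3 nuclei. With 15 barcodes of such depth, the levels in them rest on few UMIs and carry no interval. These barcodes entered no comparison, and drew attention as signal of the same genes in data that the gate leaves out.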

How the results depend on the processing

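Over 22 alternatives to the settings used, 58 of 76 single genes at least 2-fold apart from Kcnj16/Slc8a3 nuclei kept 2-fold in all, and 16 of 16 against hepatocyte nuclei. Of 8 lists at 2-fold against hepatocyte nuclei, 6 kept it, and axon guidance and progenitor genes did not. The axon guidance median over hepatocyte nuclei turned to -0.15 with nuclei thinned to 3000 UMIs. The number of nuclei ran from 254 with Kitl left out of the gate sum to 375 with Ndnf left out. The genes higher over Kcnj16/Slc8a3 nuclei (414) numbered 263 after thinning and 705 with a minimum of 20 UMIs per gene. The genes lower (420) numbered 269 with a pseudocount of 5 CPM. They numbered 1453 in subgroups 1 to 3, 696 between main clusters and 686 without nuclei holding hepatocyte markers, all chosen after the data were seen. The genes higher over hepatocyte nuclei (1536) numbered 790 after thinning and 2527 with a minimum of 20 UMIs, and those lower (1334) numbered 2134 in subgroups 1 to 3 and 2135 between main clusters. Fewer UMIs per gene admit more low genes, and the cause of the other shifts was not tested. Genes with few UMIs limit the precision of their folds. No paired analysis was possible because no barcode names its sample. Neither sample could therefore be left out.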

Other observations

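Some genes of other lineages stood in Kitl/Eya4 nuclei without the rest of their marker list. Flt1, a VEGF receptor of endothelium, was at 268 CPM in subgroups 1 to 3, against 29.3 CPM in Kcnj16/Slc8a3 nuclei, 19.5 CPM in hepatocyte nuclei and 74.8 CPM in free RNA. The other 7 endothelial markers lay between 2.80 CPM (Cdh5 and Tek) and 15.8 CPM (Ptprb) there. Bank1 and Pax5, genes of B cells, were at 57.8 and 34.7 CPM in subgroups 1 to 3, against 17.6 and 18.5 CPM in Kcnj16/Slc8a3 nuclei, with the B cell receptor genes Cd79a and Cd79b at 0.350 CPM each.

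Mesothelial markers, of which few UMIs were found, differed between subgroups and did not share 1 pattern. Msln, which encodes mesothelin, stood at 13.4, 0 and 5.31 CPM in subgroups 1, 2 and 3, against 0.958 CPM in Kcnj16/Slc8a3 nuclei and 7.81 CPM in free RNA. Muc16 stood at 0.895, 0 and 18.1 CPM in subgroups 1, 2 and 3, against 0.639 CPM in Kcnj16/Slc8a3 nuclei and 4.98 CPM in free RNA. Over all Kitl/Eya4 nuclei there were 29 UMIs of Msln and 20 of Muc16, found in 4.79% and 1.33% of nuclei. Gpm6a stood at 0.895, 6.28 and 33.0 CPM in subgroups 1, 2 and 3, against 3.13 CPM in Kcnj16/Slc8a3 nuclei. Wt1 stood at 0, 1.26 and 18.1 CPM in subgroups 1, 2 and 3. Over all Kitl/Eya4 nuclei Wt1 was at 5.08 CPM, below the 11.9 CPM in Kcnj16/Slc8a3 nuclei. Upk3b had 2 UMIs.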
